A study of Mus musculus with 24 samples.

Results

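The genes described here are 35 mouse genes of the unfolded protein response and the integrated stress response, out of 52636 gene models counted in each library. They were chosen by name, and all 35 were found among the deposited gene models through the GENCODE M21 annotation. By role they are 10 chaperones and folding factors of the endoplasmic reticulum (ER), 4 components of ER-associated degradation, 3 stress sensors with the transcription factor gene Xbp1, 9 factors and feedback regulators of the integrated stress response, and 8 enzymes of amino acid and one-carbon metabolism. The data are 24 RNA-seq libraries of polyadenylated RNA from BMDMs, macrophages grown in culture from mouse bone marrow, with 6 libraries in each of 4 groups. The groups are Ninj1KO_Pam3 (cells of Ninj1 knockout mice given Pam3), WT_Pam3 (wild-type C57BL/6 cells given Pam3), Ninj1KO_NoPrime (Ninj1 knockout cells in media only) and WT_NoPrime (wild-type C57BL/6 cells in media only), and "media" below stands for NoPrime. Ninj1 encodes ninjurin-1, a membrane protein that ruptures the plasma membrane of dying cells, and Pam3 is the usual short name of a synthetic lipopeptide that activates Toll-like receptor TLR2. The labels give the wild-type mice as male and give no sex for the knockout mice. Not given in the sources used here are the dose and duration of Pam3, the age of the mice, the strain background of the knockout and the part of Ninj1 that was removed. Nothing in the labels ties the libraries of a group to separate mice or cultures, so p-values measure the spread between these libraries, which may be technical.

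Secretory and membrane proteins fold in the ER with the help of chaperones, and proteins that fail to fold are exported and degraded. When unfolded proteins accumulate, 3 ER membrane sensors respond: IRE1 (gene Ern1) splices Xbp1 mRNA into the form that encodes an active transcription factor, ATF6 is cut to release another, and PERK (gene Eif2ak3) phosphorylates the translation factor eIF2α. Phosphorylation of eIF2α by PERK or by one of the related kinases is the integrated stress response, in which general translation is lowered and translation of ATF4 increases, and ATF4 then turns on genes for amino acid synthesis and transport and for feedback on the pathway. Gene-level counts measure transcript abundance and hold neither the splicing of Xbp1 nor the translation of Atf4. In macrophages, IRE1 and XBP1 have been linked to Toll-like receptor signalling.

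Total counts per library lay between 31302011 and 40663152, and 34 of the 35 genes passed the filter on low counts. Ninj1 had 409 to 479 CPM (median 420.5) in Ninj1KO_Pam3 and 646 to 1145 CPM (median 785) in WT_Pam3. In media, Ninj1 had 151 to 179 CPM (median 167) in Ninj1KO_NoPrime and 289 to 325 CPM (median 308) in WT_NoPrime. CPM is a count scaled to the TMM-adjusted size of its library. The Ninj1 log2 fold change came to -0.92 (SE 0.087, adjusted p = 4.05e-07) after Pam3 and -0.88 (SE 0.087, adjusted p = 7.33e-07) in media (edgeR quasi-likelihood test), and within each condition every knockout library was lower than every wild-type library. All 7 macrophage markers were found at a mean of at least 1 CPM in every group, while the summed level of 6 T and NK cell markers stayed at or below 0.381 CPM in every library. Replicate numbers were assigned here in the order of the deposited samples within each group, since the labels give none. WT_Pam3 replicate 5 stood apart from the other 5 libraries of its group, and results that it decides are given with and without it. In bulk RNA, fewer cells of a type and less RNA per cell cannot be told apart.

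Several of these genes are known for short promoter elements through which the sensors act, so the promoter stretches that hold such an element are shown first. RefSeq promoter windows on GRCm38.p6, 300 bases each from 250 before to 50 after a transcript start, were matched by symbol for 32 of the 35 genes and gave 34 windows. Manf, Hyou1 and Atf6 had no window and were not searched. Exact matches on either strand were sought for the ER stress element ERSE (CCAAT, then 9 bases, then CCACG), ERSE-II (ATTGG, 1 base, CCACG), the unfolded protein response element UPRE (TGACGTGG), the composite C/EBP-ATF element (TGATGNAAT), the nutrient-sensing element NSRE-1 (TGATGAAAC) and the cAMP response element CRE (TGACGTCA). The elements share letters. ERSE and ERSE-II both hold CCACG and, read on opposite strands, CCAAT, and UPRE ends in CGTGG, the reverse complement of CCACG. UPRE and CRE share TGACGT, and the C/EBP-ATF element and NSRE-1 share TGATG. ERSE was found in 6 genes, all of them in the ER part of the list, against 0.119% of the 32851 windows in the table. The stretches below run 5′ to 3′ on the strand of the gene with 20 bases on each side, and capitals mark the fixed letters of each match in either orientation.
Hspa5, ERSE, chr2:34772005-34772063, + strand: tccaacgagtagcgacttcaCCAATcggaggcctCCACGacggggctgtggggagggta
Pdia6, ERSE, chr12:17266471-17266529, + strand: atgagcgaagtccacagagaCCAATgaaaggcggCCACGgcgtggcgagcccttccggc
Dnajc3, ERSE, chr14:118937807-118937865, + strand: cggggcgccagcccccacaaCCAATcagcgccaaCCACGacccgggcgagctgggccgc
Creld2, ERSE, chr15:88819500-88819558, + strand: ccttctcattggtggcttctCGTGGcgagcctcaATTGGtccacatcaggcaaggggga
Syvn1, ERSE, chr19:6046512-6046570, + strand: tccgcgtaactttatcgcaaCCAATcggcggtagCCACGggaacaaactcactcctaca
Hsp90b1, ERSE, chr10:86705513-86705676, - strand: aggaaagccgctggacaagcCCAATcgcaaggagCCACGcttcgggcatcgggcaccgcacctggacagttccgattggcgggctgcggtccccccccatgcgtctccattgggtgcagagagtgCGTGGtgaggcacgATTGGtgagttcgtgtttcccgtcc
Herpud1, ERSE-II, chr8:94386357-94386407, + strand: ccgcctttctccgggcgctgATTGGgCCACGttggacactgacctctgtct
Asns, NSRE-1, chr6:7693204-7693252, - strand: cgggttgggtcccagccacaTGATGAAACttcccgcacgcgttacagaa
Nupr1, C/EBP-ATF, chr7:126625553-126625601, - strand: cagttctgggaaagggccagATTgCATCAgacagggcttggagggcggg
Pycr1, C/EBP-ATF, chr11:120643823-120643871, - strand: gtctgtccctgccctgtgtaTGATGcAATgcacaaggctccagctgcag
Ppp1r15a, CRE, chr7:45526253-45526300, - strand: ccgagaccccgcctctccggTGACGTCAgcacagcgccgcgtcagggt

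ERSE-II was found in Herpud1 alone, against 0.0365% of all windows, and NSRE-1 in Asns alone, against 0.247%. The C/EBP-ATF element as searched, with T fixed as its last base, was found in Nupr1 and Pycr1, against 0.965% of all windows. CRE was found in Ppp1r15a, against 1.79%. Windows of Chac1, Vldlr, Herpud1 and Trib3 hold stretches that differ from the C/EBP-ATF pattern in that last base only. So does the NSRE-1 match of Asns. Such variants were not counted, so the search does not show that these genes lack a C/EBP-ATF element. No window of a listed gene held UPRE, which was in 0.676% of all windows. A match describes letters in the window only, and factor binding was not measured.

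With Pam3, genes for ER chaperones such as Hspa5 and Manf, the ATF4 gene and several of its amino acid targets were higher, while the 3 sensor genes, Pdia4, Ddit3 and Sesn2 were lower, in both genotypes. In Ninj1KO macrophages 19 of the 34 tested genes rose and 13 fell (edgeR, adjusted p under 0.05), beside 85.0% of all 14435 genes called in either direction, with 40.2% of all genes rising and 44.8% falling. In WT macrophages 20 rose and 12 fell, beside 84.8% of all genes called, with 40.6% rising and 44.2% falling. The share of listed genes called is near that of all genes, so the size and direction of each response are given below. At a change of at least 2-fold, 13 of 34 rose in Ninj1KO cells beside 17.9% of all genes, and 12 of 34 rose in WT cells beside 18.2%. At least 2-fold lower were 2 of 34 in Ninj1KO cells beside 25.3% of all genes, and 3 of 34 in WT cells beside 25.1%. The median log2 fold change of the listed genes was 0.43 in Ninj1KO cells against -0.074 for all genes, and 0.55 in WT cells against -0.055 for all genes. The counts in WT cells were the same without WT_Pam3 replicate 5, at 20 higher and 12 lower.

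The scaling of the libraries bears on these directions. With library size alone in place of TMM factors, the median of all genes moved by -0.48 in Ninj1KO cells and by -0.52 in WT cells. All genes called split into 3685 higher and 8935 lower in Ninj1KO cells, against 5803 and 6470 with TMM. In WT cells they split into 3584 higher and 9055 lower, against 5859 and 6376 with TMM. Under that scaling 16 listed genes rose and 15 fell in each genotype, and the log2 fold changes of Dnajc3, Creld2 and Xbp1 turned negative. Relative to the median of all genes these 3 stayed above 0, at 0.27, 0.47 and 0.53 in Ninj1KO cells and at 0.21, 0.54 and 0.54 in WT cells. The 2-fold counts above hold under TMM only. With library size alone Hspa5, Pdia6, Manf and Herpud1 rose less than 2-fold, at 0.60, 0.61, 0.88 and 0.77 in Ninj1KO cells, where Sel1l was at 0.55. In WT cells Hspa5, Pdia6, Manf and Herpud1 were at 0.65, 0.61, 0.94 and 0.71, and Psat1 was at 0.92. Pdia4, Sdf2l1, Atf6, Ddit3, Ddit4 and Psph were then at least 2-fold lower in both genotypes. So were Ern1 in Ninj1KO cells, at -1.42, and Trib3 in WT cells, at -1.28.

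Markers of other cell types also moved with Pam3. The summed level of 7 stromal markers was 130.3 to 176 CPM in Ninj1KO_Pam3 and 92.9 to 132 CPM in WT_Pam3, against 52.0 to 94.5 CPM in Ninj1KO_NoPrime and 38.1 to 48.8 CPM in WT_NoPrime. Most of the Pam3 value was Pdgfrb, while Col1a2 had no higher range with Pam3, at 11.6 to 17.9 CPM in Ninj1KO_Pam3 and 7.74 to 12.0 CPM in WT_Pam3, against 15.8 to 30.9 CPM in Ninj1KO_NoPrime and 11.0 to 14.5 CPM in WT_NoPrime. The sum of 6 dendritic cell markers was 191 to 224 CPM in Ninj1KO_Pam3 and 171 to 218 CPM in WT_Pam3, against 9.46 to 11.3 CPM in Ninj1KO_NoPrime and 6.88 to 9.28 CPM in WT_NoPrime. Fscn1 made up most of it, and Zbtb46 stayed at or below 0.784 CPM in every library. Flt3 and Siglech of this list went the other way. Flt3 had 0.383 to 0.673 CPM in Ninj1KO_Pam3 and 0.362 to 0.620 CPM in WT_Pam3, against 1.15 to 1.91 CPM in Ninj1KO_NoPrime and 1.13 to 1.77 CPM in WT_NoPrime. Siglech had 0.816 to 1.25 CPM in Ninj1KO_Pam3 and 0.984 to 1.70 CPM in WT_Pam3, against 2.95 to 3.47 CPM in Ninj1KO_NoPrime and 2.64 to 3.23 CPM in WT_NoPrime. The sum of 8 B and plasma cell markers was 85.8 to 92.8 CPM in Ninj1KO_Pam3 and 70.8 to 82.0 CPM in WT_Pam3, against 35.1 to 40.0 CPM in Ninj1KO_NoPrime and 33.4 to 36.7 CPM in WT_NoPrime. Most of it was Sdc1, the syndecan-1 gene, at 81.4 to 87.8 CPM in Ninj1KO_Pam3 and 65.6 to 75.3 CPM in WT_Pam3, against 28.8 to 33.6 CPM in Ninj1KO_NoPrime and 26.9 to 30.5 CPM in WT_NoPrime. Of the same list, the plasma cell markers Jchain and Mzb1 stayed at or below 0.313 and 0.260 CPM in every library. Cd79b was lower with Pam3 in Ninj1KO cells, at 2.14 to 2.77 CPM against 4.05 to 4.72 CPM in media, and in WT cells its ranges overlapped. The sum of 9 granulocyte markers was 53.7 to 61.8 CPM in Ninj1KO_Pam3 and 44.0 to 66.0 CPM in WT_Pam3, against 90.6 to 104.5 CPM in Ninj1KO_NoPrime and 68.9 to 81.1 CPM in WT_NoPrime. Camp of this list went the other way, at 3.80 to 4.94 CPM in Ninj1KO_Pam3 and 2.68 to 6.44 CPM in WT_Pam3. In media, Camp had 0.921 to 1.70 CPM in Ninj1KO_NoPrime and 0.850 to 1.15 CPM in WT_NoPrime. The part of these markers in the Pam3 responses was not tested.

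**Figure D1:**
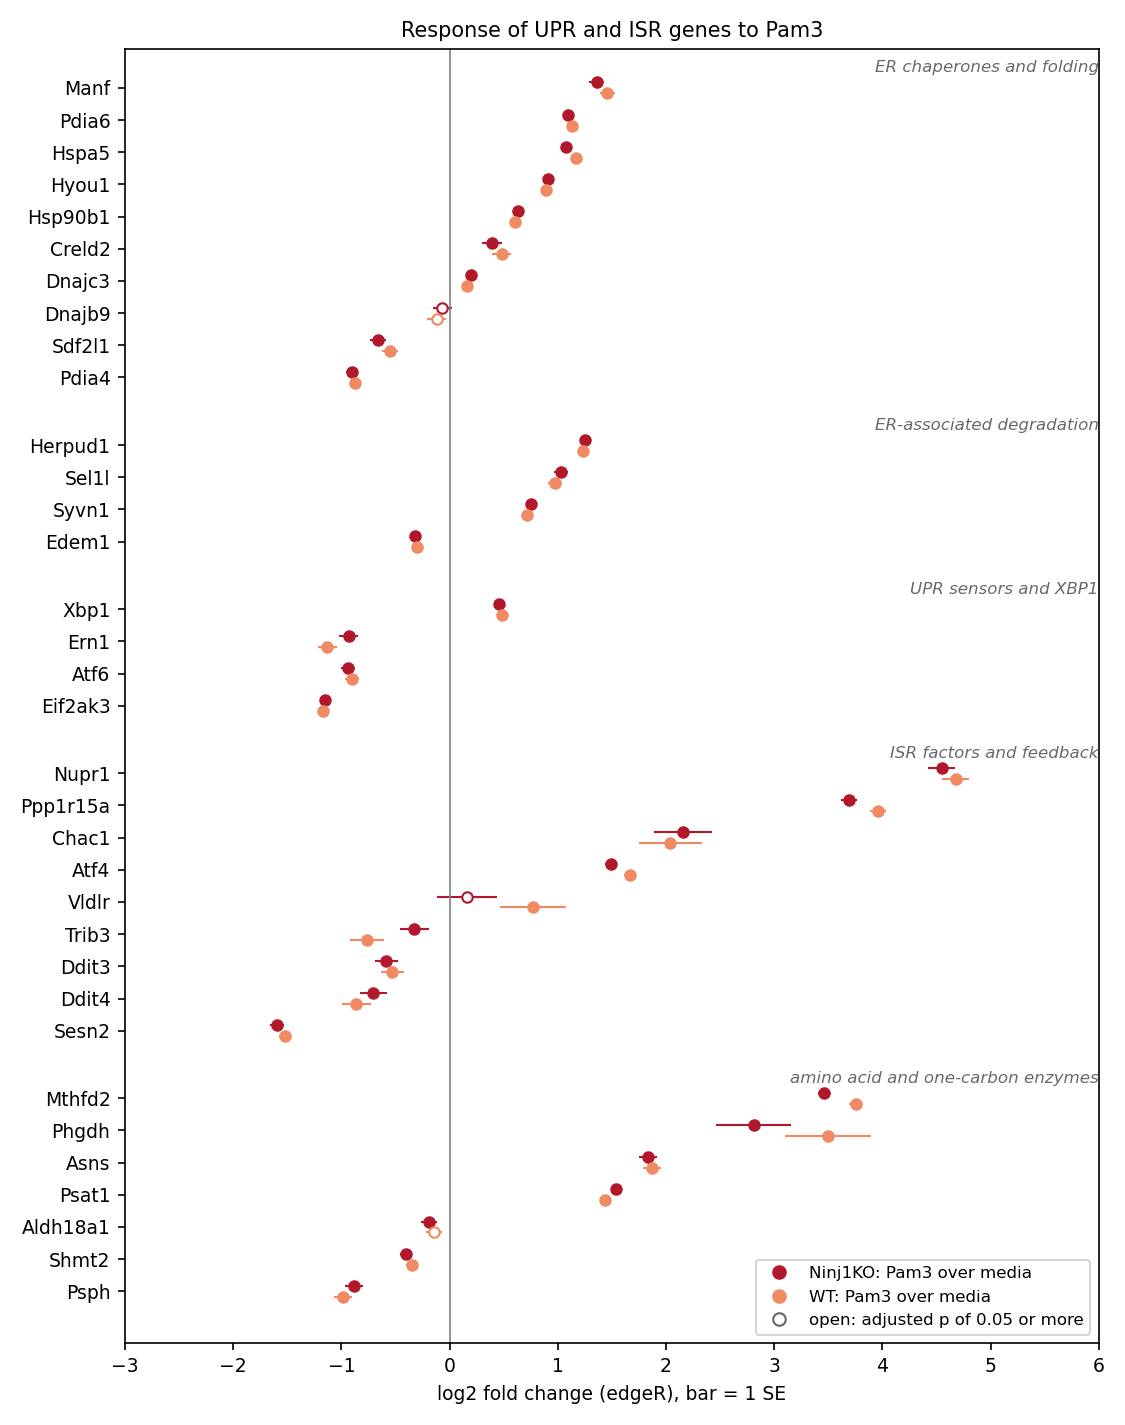
Log2 fold change of Pam3 over media for each of the 34 tested genes (x axis, edgeR), grouped by role and ordered by the Ninj1KO value, with dark red points for Ninj1KO and light orange points for WT and bars of 1 SE. Most ER chaperones lie right of 0 and the 3 sensor genes left of it. Nupr1, Ppp1r15a and Mthfd2 lie above a log2 of 3 in both genotypes, and the low-count gene Phgdh in WT only.

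Of the 10 ER chaperone and folding genes, 7 rose and 2 fell with Pam3 in each genotype under TMM. With library size alone 5 were higher and 4 lower in each genotype: Dnajc3 and Dnajb9 were then lower and Creld2 was not called. Hspa5 encodes BiP, the main ER chaperone, which also holds the 3 sensors inactive. It had 1164 to 1221 CPM (median 1203) in Ninj1KO_Pam3 and 1197 to 1293 CPM (median 1239) in WT_Pam3. In media, Hspa5 had 532 to 652 CPM (median 547) in Ninj1KO_NoPrime and 509 to 578 CPM (median 559) in WT_NoPrime. Every Pam3 library was above every media library. For Hspa5, the log2 fold change came to 1.08 (SE 0.043, adjusted p = 1.18e-18) in Ninj1KO cells and 1.17 (SE 0.043, adjusted p = 2.01e-19) in WT cells (edgeR). Manf encodes a secreted ER stress-inducible factor that binds BiP, and it had 94.9 to 105 CPM (median 101) in Ninj1KO_Pam3 and 98.7 to 142 CPM (median 102) in WT_Pam3. In media, Manf had 34.6 to 44.0 CPM (median 39.2) in Ninj1KO_NoPrime and 36.6 to 41.8 CPM (median 39.5) in WT_NoPrime. The Pam3 and media libraries of Manf did not overlap. For Manf, the log2 fold change came to 1.36 (SE 0.07, adjusted p = 3.54e-16) in Ninj1KO cells and 1.46 (SE 0.07, adjusted p = 7.47e-17) in WT cells. The highest WT_Pam3 value was replicate 5, and without that library the WT value was 1.37 (adjusted p = 6.59e-24). The Manf model overlaps Rbm15b, and the library kit kept no strand, so reads of that overlap could not be assigned by strand.

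Pdia6, a protein disulfide isomerase, had 227 to 249 CPM (median 247) in Ninj1KO_Pam3 and 231 to 289 CPM (median 242) in WT_Pam3. In media, Pdia6 had 106 to 126 CPM (median 112) in Ninj1KO_NoPrime and 109 to 117 CPM (median 114) in WT_NoPrime. All Pam3 libraries exceeded all media libraries, with log2 fold changes of 1.09 in Ninj1KO cells and 1.13 in WT cells. Hyou1, a large ER chaperone that exchanges nucleotide on BiP, changed by 0.91 and Hsp90b1, the ER form of HSP90, by 0.64 in Ninj1KO cells, against 0.90 for Hyou1 and 0.61 for Hsp90b1 in WT cells. Pdia4, another disulfide isomerase, went the other way, with 30.2 to 34.2 CPM (median 32.2) in Ninj1KO_Pam3 and 29.3 to 34.96 CPM (median 31.1) in WT_Pam3. In media, Pdia4 had 58.3 to 65.6 CPM (median 59.6) in Ninj1KO_NoPrime and 53.4 to 62.5 CPM (median 58.5) in WT_NoPrime. Every Pam3 library of Pdia4 lay below every media library. For Pdia4, the log2 fold change came to -0.90 (SE 0.05, adjusted p = 1.81e-15) in Ninj1KO cells and -0.87 (SE 0.05, adjusted p = 4.33e-15) in WT cells (edgeR). The other gene of the group that fell was Sdf2l1, which encodes an ER protein that works with BiP and its DnaJ partners, at -0.66 in Ninj1KO cells and -0.55 in WT cells.

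The smaller responses in this group belonged to Creld2, Dnajc3 and Dnajb9. Creld2, an ER protein with disulfide isomerase activity, had a log2 fold change of 0.39 (SE 0.09, adjusted p = 0.000265) in Ninj1KO cells and 0.48 (SE 0.091, adjusted p = 2.36e-05) in WT cells. Without WT_Pam3 replicate 5, where Creld2 reached 32.5 CPM, the WT value was 0.36 (adjusted p = 1.48e-06). Dnajc3, the DnaJ co-chaperone P58IPK, had 0.20 (SE 0.039, adjusted p = 4.69e-05) in Ninj1KO cells and 0.16 (SE 0.039, adjusted p = 0.000593) in WT cells, where the Pam3 and media libraries overlapped and the call was lost with no filter on low counts (adjusted p = 0.0520). Dnajb9, the ER DnaJ protein ERdj4 and a well-known target of XBP1, was the only gene of the group not called in either genotype, with 11.7 to 14.7 CPM (median 12.3) in Ninj1KO_Pam3 and 10.1 to 14.5 CPM (median 13.1) in WT_Pam3. In media, Dnajb9 had 12.3 to 14.3 CPM (median 13.5) in Ninj1KO_NoPrime and 10.9 to 16.8 CPM (median 14.1) in WT_NoPrime. The groups of Dnajb9 overlapped, and its call changed with library size alone in both genotypes and without WT_NoPrime replicate 3 in WT cells. For Dnajb9, the log2 fold change came to -0.066 (SE 0.085, adjusted p = 0.468) in Ninj1KO cells and -0.12 (SE 0.085, adjusted p = 0.188) in WT cells. Among the 6 genes whose promoter stretch with ERSE is printed above, the log2 fold change under TMM in Ninj1KO cells lay between 0.20 (Dnajc3) and 1.09 (Pdia6), against 0.16 (Dnajc3) and 1.17 (Hspa5) in WT cells. With library size alone Dnajc3 was lower, at -0.29 in Ninj1KO cells and -0.36 in WT cells. ER genes searched without a match included Sel1l, at 1.03 in Ninj1KO cells under TMM, and Eif2ak3, at -1.15. A link between the element and the response was not tested.

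Of the 4 genes of ER-associated degradation, 3 rose and 1 fell in each genotype. Herpud1, an ER membrane scaffold of the degradation complex and the gene with the ERSE-II match, had 94.8 to 99.3 CPM (median 95.7) in Ninj1KO_Pam3 and 90.1 to 101 CPM (median 93.3) in WT_Pam3. In media, Herpud1 had 38.0 to 43.1 CPM (median 40.6) in Ninj1KO_NoPrime and 37.3 to 41.0 CPM (median 40.4) in WT_NoPrime. Its groups with and without Pam3 were apart, with log2 fold changes of 1.25 (SE 0.036, adjusted p = 4.68e-22) in Ninj1KO cells and 1.24 (SE 0.036, adjusted p = 6.78e-22) in WT cells. Sel1l and Syvn1 encode the adaptor and the ubiquitin ligase of one complex, and both rose. Sel1l changed by 1.03 in Ninj1KO cells and by 0.97 in WT cells, and Syvn1, whose model overlaps Mrpl49, by 0.75 in Ninj1KO cells and by 0.71 in WT cells. WT_Pam3 replicate 5 had 296 CPM of Sel1l where the other 5 libraries of the group had 429 to 449 CPM, and the WT value without it was 1.05 (adjusted p = 7.18e-26). Edem1, which takes misfolded glycoproteins to degradation, fell, with 327 to 355 CPM (median 339) in Ninj1KO_Pam3 and 285 to 359 CPM (median 350.1) in WT_Pam3. In media, Edem1 had 406 to 438 CPM (median 424) in Ninj1KO_NoPrime and 414 to 430.0 CPM (median 419) in WT_NoPrime. For Edem1, the log2 fold change came to -0.32 (SE 0.042, adjusted p = 1.05e-07) in Ninj1KO cells and -0.30 (SE 0.042, adjusted p = 2.03e-07) in WT cells, and no Pam3 library reached the lowest media library.

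**Figure D2:**
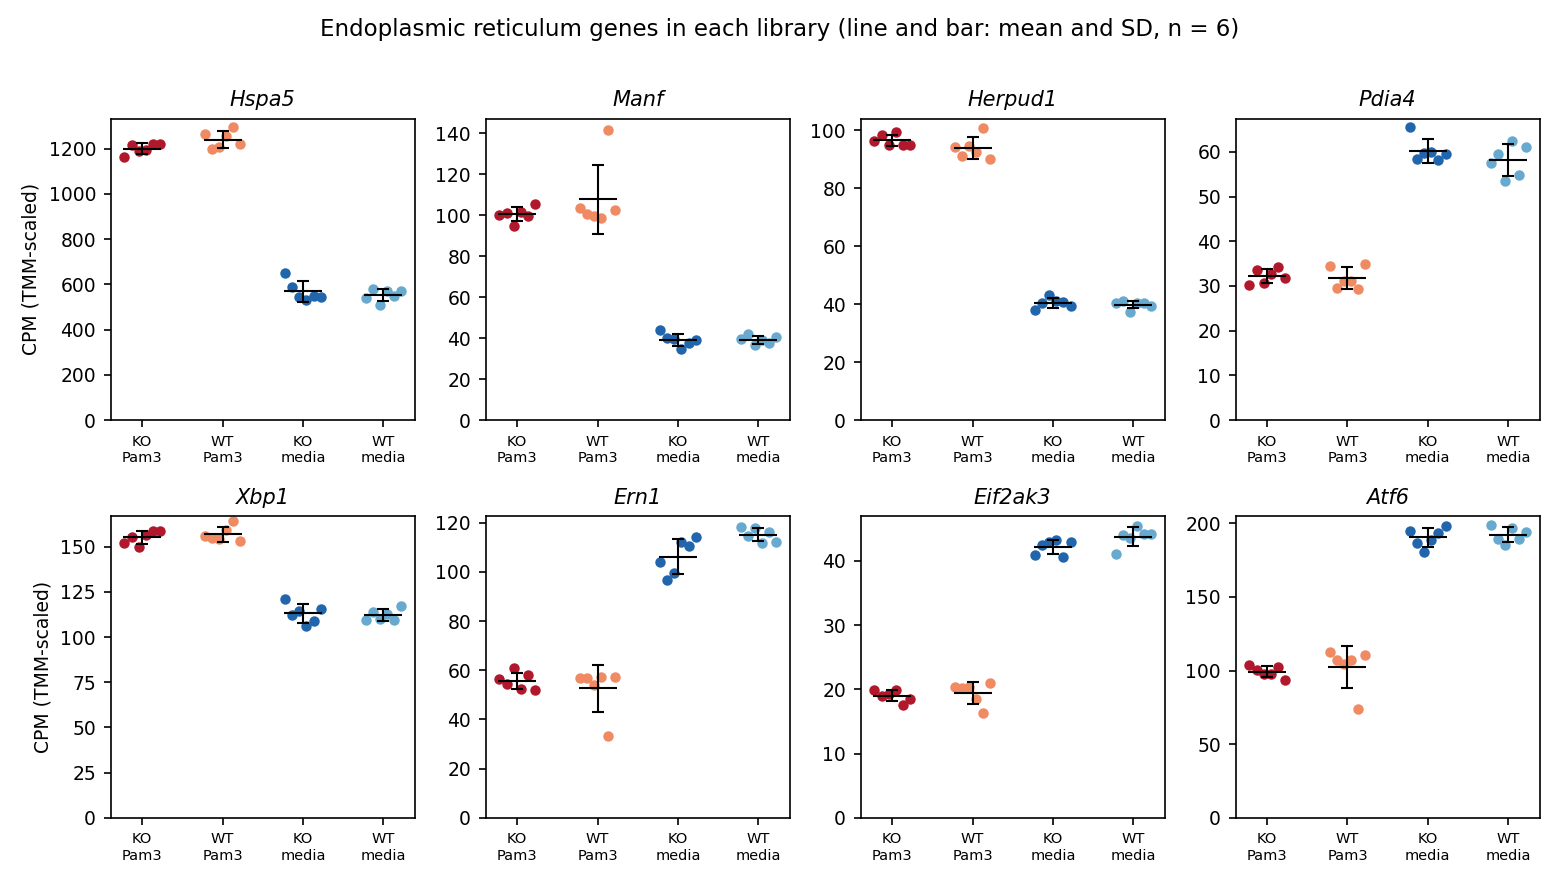
CPM of 8 ER genes in each of the 24 libraries (points), by group from left to right Ninj1KO_Pam3, WT_Pam3, Ninj1KO_NoPrime and WT_NoPrime, with the mean and SD of 6 libraries as line and bar and the axis starting at 0. Hspa5, Manf, Herpud1 and Xbp1 are higher in every Pam3 library and Pdia4, Ern1, Eif2ak3 and Atf6 lower, and 1 WT_Pam3 library, replicate 5, lies apart for Manf, Ern1 and Atf6.

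All 3 sensor genes fell with Pam3 while Xbp1 rose, in both genotypes. Ern1, the gene of IRE1, had 51.9 to 60.8 CPM (median 55.2) in Ninj1KO_Pam3 and 33.3 to 57.3 CPM (median 56.8) in WT_Pam3. In media, Ern1 had 96.6 to 114 CPM (median 107) in Ninj1KO_NoPrime and 112 to 118 CPM (median 115) in WT_NoPrime. Its response was -0.93 (SE 0.085, adjusted p = 7.93e-11) in Ninj1KO cells and -1.13 (SE 0.085, adjusted p = 1.58e-12) in WT cells. The lowest WT_Pam3 value was replicate 5, and without it the WT value was -1.03 (adjusted p = 1.57e-20). Eif2ak3, the gene of PERK, had 17.6 to 19.9 CPM (median 19.2) in Ninj1KO_Pam3 and 16.2 to 20.98 CPM (median 20.3) in WT_Pam3. In media, Eif2ak3 had 40.6 to 43.2 CPM (median 42.7) in Ninj1KO_NoPrime and 41.1 to 45.5 CPM (median 44.1) in WT_NoPrime. The groups with and without Pam3 did not overlap for either gene, and Eif2ak3 changed by -1.15 (SE 0.048, adjusted p = 3.21e-18) in Ninj1KO cells and -1.17 (SE 0.048, adjusted p = 2.18e-18) in WT cells. Atf6 changed by -0.94 (SE 0.064, adjusted p = 1.62e-13) in Ninj1KO cells and -0.90 (SE 0.064, adjusted p = 3.57e-13) in WT cells, also with no overlap. Xbp1 had 150.1 to 159 CPM (median 156) in Ninj1KO_Pam3 and 153 to 164 CPM (median 155) in WT_Pam3. In media, Xbp1 had 106 to 121 CPM (median 113) in Ninj1KO_NoPrime and 109.6 to 117 CPM (median 111) in WT_NoPrime. Every Pam3 library of Xbp1 was above every media library, with log2 fold changes of 0.46 (SE 0.033, adjusted p = 6.75e-13) in Ninj1KO cells and 0.48 (SE 0.033, adjusted p = 2.11e-13) in WT cells under TMM, which became -0.026 in Ninj1KO cells and -0.039 in WT cells with library size alone.

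The factors and feedback regulators of the integrated stress response split, with 4 of 9 higher and 4 of 9 lower in Ninj1KO cells and 5 of 9 higher and 4 of 9 lower in WT cells. Atf4, the central transcription factor, had 269 to 301 CPM (median 281) in Ninj1KO_Pam3 and 269 to 374 CPM (median 291) in WT_Pam3. In media, Atf4 had 95.3 to 104 CPM (median 101) in Ninj1KO_NoPrime and 91.6 to 99.9 CPM (median 95.2) in WT_NoPrime. Every Pam3 library was above every media library. For Atf4, the log2 fold change came to 1.49 (SE 0.055, adjusted p = 1.96e-19) in Ninj1KO cells and 1.66 (SE 0.056, adjusted p = 1.7e-20) in WT cells. Nupr1, a small stress-inducible chromatin protein whose promoter stretch with the C/EBP-ATF match is printed above, had the largest log2 fold change of the 34 genes in each genotype. It had 114 to 123 CPM (median 118) in Ninj1KO_Pam3 and 99.8 to 172 CPM (median 106) in WT_Pam3. In media, Nupr1 had 3.84 to 6.13 CPM (median 5.09) in Ninj1KO_NoPrime and 3.71 to 5.43 CPM (median 4.46) in WT_NoPrime. The log2 fold change of Nupr1 was 4.55 (SE 0.12, adjusted p = 1.69e-22) in Ninj1KO cells and 4.68 (SE 0.13, adjusted p = 1.09e-22) in WT cells, and 4.54 (adjusted p = 2.25e-32) in WT cells without replicate 5, the library with the highest value.

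Ppp1r15a encodes GADD34, which brings a phosphatase to eIF2α and so reverses the response. It had 314 to 399 CPM (median 340.0) in Ninj1KO_Pam3 and 336 to 499 CPM (median 404) in WT_Pam3. In media, Ppp1r15a had 24.1 to 29.0 CPM (median 26.9) in Ninj1KO_NoPrime and 25.6 to 26.4 CPM (median 25.9) in WT_NoPrime. The Pam3 and media libraries were far apart. For Ppp1r15a, the log2 fold change came to 3.69 (SE 0.076, adjusted p = 2.69e-25) in Ninj1KO cells and 3.96 (SE 0.077, adjusted p = 7.51e-26) in WT cells. Chac1, a glutathione-degrading enzyme induced downstream of ATF4, rose, with a log2 fold change of 2.16 (SE 0.27, adjusted p = 2.83e-08) in Ninj1KO cells and 2.04 (SE 0.29, adjusted p = 3.78e-07) in WT cells at 12 to 23 counts per library in Ninj1KO_Pam3 and 7 to 16 in WT_Pam3. In media, Chac1 had 3 to 7 counts in Ninj1KO_NoPrime and 2 to 7 in WT_NoPrime. Vldlr, a lipoprotein receptor, had no more than 24 counts in any library. For Vldlr, the log2 fold change came to 0.16 (SE 0.28, adjusted p = 0.593) in Ninj1KO cells and 0.77 (SE 0.31, adjusted p = 0.0226) in WT cells, where the call was lost in 5 of 31 alternatives, among them those without WT_NoPrime replicate 1 or 3 or WT_Pam3 replicate 6.

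The 4 factors that fell in both genotypes were Ddit3, Ddit4, Trib3 and Sesn2. Ddit3 encodes CHOP, the pro-apoptotic factor downstream of ATF4, and had 24.5 to 27.9 CPM (median 25.7) in Ninj1KO_Pam3 and 20.5 to 40.4 CPM (median 22.3) in WT_Pam3. In media, Ddit3 had 37.8 to 40.2 CPM (median 39.1) in Ninj1KO_NoPrime and 33.6 to 38.8 CPM (median 35.7) in WT_NoPrime. The Ninj1KO groups were apart, and in WT cells the groups overlapped through WT_Pam3 replicate 5 at 40.4 CPM, where the other 5 libraries had 20.5 to 23.0 CPM. The log2 fold change came to -0.59 (SE 0.11, adjusted p = 1.54e-05) in Ninj1KO cells and -0.53 (SE 0.11, adjusted p = 6.61e-05) in WT cells, and -0.72 (adjusted p = 1e-15) in WT cells without replicate 5. The Ddit3 model overlaps Mars, the methionyl-tRNA synthetase gene, and reads were not separated by strand. Sesn2, a leucine sensor that restrains mTORC1, had 7.15 to 8.49 CPM (median 7.79) in Ninj1KO_Pam3 and 6.45 to 9.08 CPM (median 7.29) in WT_Pam3. In media, Sesn2 had 21.3 to 26.5 CPM (median 23.4) in Ninj1KO_NoPrime and 19.9 to 22.1 CPM (median 21.6) in WT_NoPrime. All Pam3 libraries were below all media libraries, with the lowest log2 fold changes of the 34 genes, -1.60 (SE 0.063, adjusted p = 7.77e-19) in Ninj1KO cells and -1.52 (SE 0.064, adjusted p = 3.38e-18) in WT cells. Ddit4, which encodes REDD1, another brake on mTORC1, changed by -0.70 (SE 0.12, adjusted p = 1e-05) in Ninj1KO cells and -0.86 (SE 0.13, adjusted p = 1.22e-06) in WT cells.

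**Figure D3:**
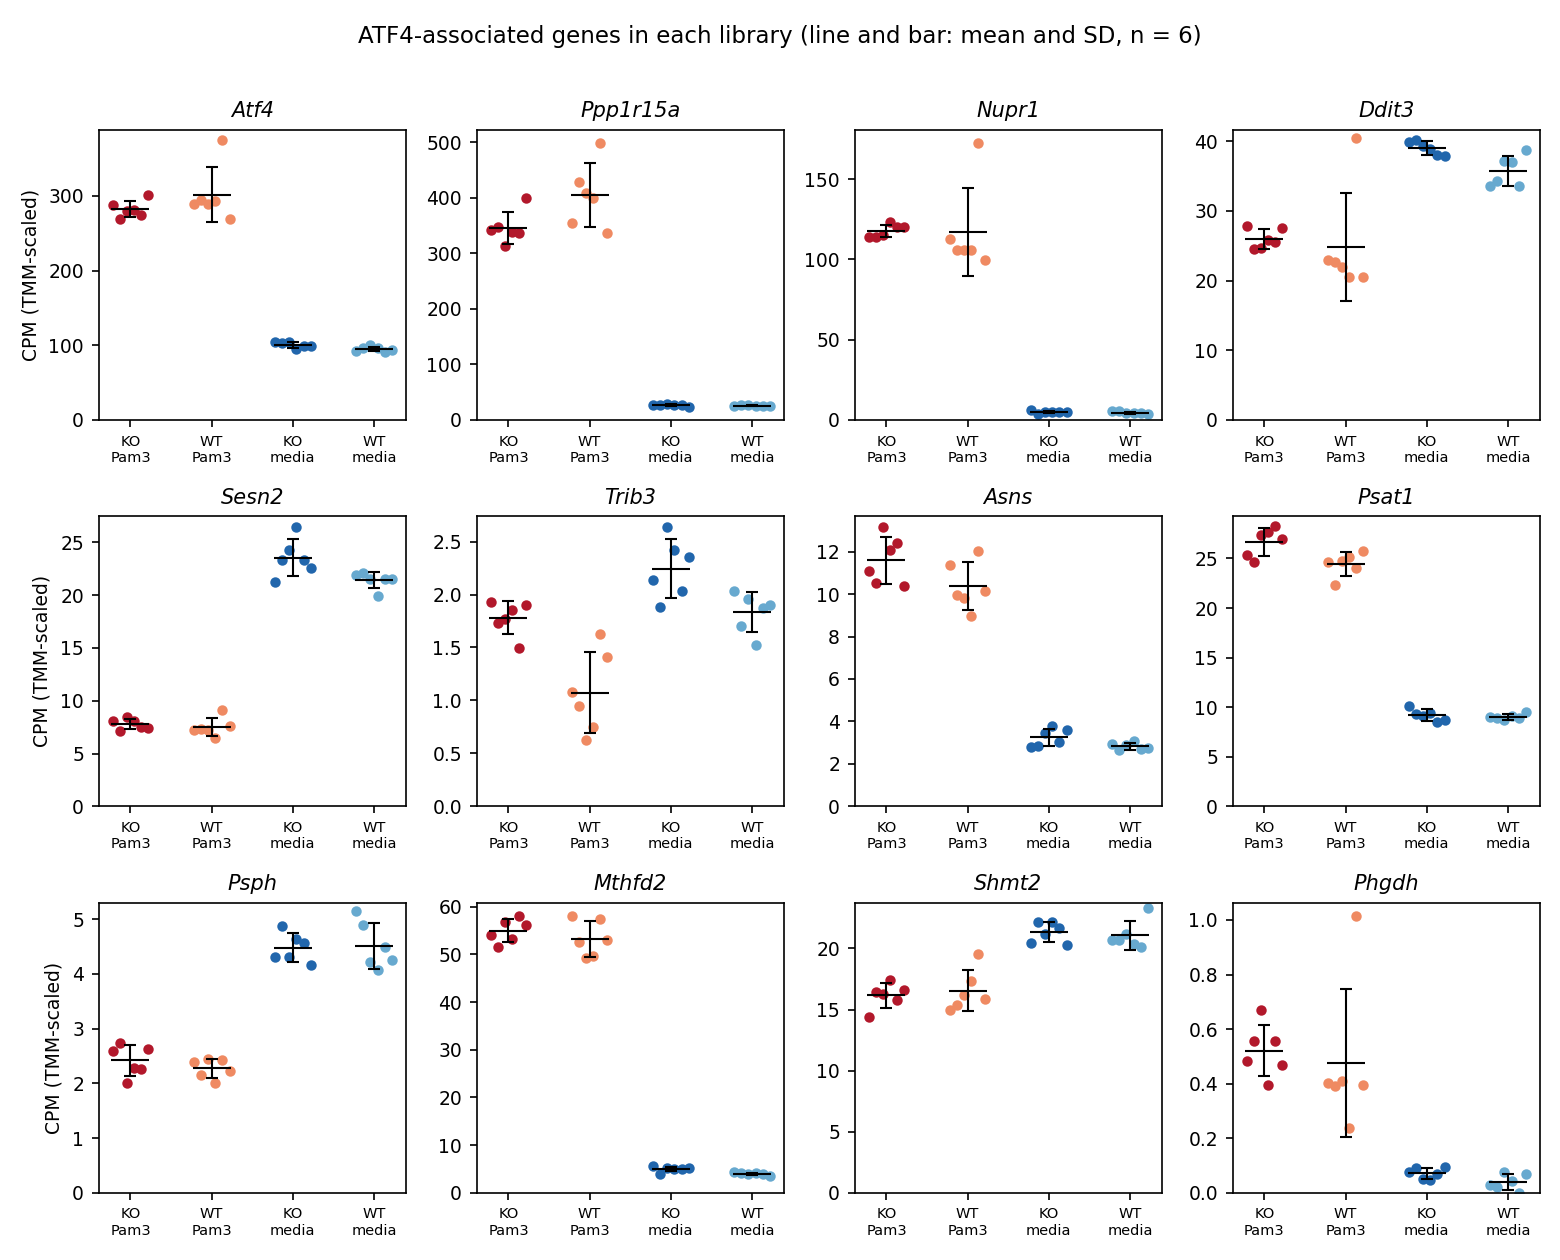
CPM of 12 genes of the integrated stress response in each of the 24 libraries (points), by group from left to right Ninj1KO_Pam3, WT_Pam3, Ninj1KO_NoPrime and WT_NoPrime, with the mean and SD of 6 libraries as line and bar and each axis starting at 0. Atf4, Ppp1r15a, Nupr1, Asns, Psat1, Mthfd2 and Phgdh are higher in every Pam3 library than in every media library of the same genotype, Sesn2, Psph and Shmt2 are lower, and Trib3 spreads from 0.630 to 1.63 CPM within WT_Pam3.

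Of the 8 enzymes 7 were tested, with 4 higher and 3 lower in Ninj1KO cells and 4 higher and 2 lower in WT cells. Mthfd2, the mitochondrial enzyme that oxidises methylene-tetrahydrofolate in one-carbon metabolism, had 51.5 to 58.1 CPM (median 55.1) in Ninj1KO_Pam3 and 49.2 to 58.1 CPM (median 52.8) in WT_Pam3. In media, Mthfd2 had 4.02 to 5.54 CPM (median 5.08) in Ninj1KO_NoPrime and 3.51 to 4.26 CPM (median 4.003) in WT_NoPrime. The groups with and without Pam3 were far apart. For Mthfd2, the log2 fold change came to 3.46 (SE 0.063, adjusted p = 1.49e-26) in Ninj1KO cells and 3.76 (SE 0.064, adjusted p = 4.35e-27) in WT cells. Asns, asparagine synthetase and the gene with the NSRE-1 match, had 10.4 to 13.1 CPM (median 11.6) in Ninj1KO_Pam3 and 8.96 to 12.0 CPM (median 10.1) in WT_Pam3. In media, Asns had 2.78 to 3.78 CPM (median 3.25) in Ninj1KO_NoPrime and 2.66 to 3.09 CPM (median 2.82) in WT_NoPrime. No media library of Asns reached a Pam3 library, and it changed by 1.83 (SE 0.083, adjusted p = 1.9e-17) in Ninj1KO cells and 1.87 (SE 0.085, adjusted p = 2.19e-17) in WT cells.

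The 3 steps of serine synthesis from a glycolytic intermediate are carried out in turn by the products of Phgdh, Psat1 and Psph. Psat1 rose, with 24.6 to 28.3 CPM (median 27.2) in Ninj1KO_Pam3 and 22.4 to 25.7 CPM (median 24.7) in WT_Pam3. In media, Psat1 had 8.53 to 10.2 CPM (median 9.24) in Ninj1KO_NoPrime and 8.67 to 9.54 CPM (median 8.93) in WT_NoPrime. For Psat1, the log2 fold change came to 1.53 (SE 0.047, adjusted p = 2.73e-21) in Ninj1KO cells and 1.44 (SE 0.048, adjusted p = 1.38e-20) in WT cells. Phgdh was near the limit of counting, with 13 to 20 counts per library in Ninj1KO_Pam3 and 7 to 28 in WT_Pam3. In media, Phgdh had 2 to 4 counts in Ninj1KO_NoPrime and 0 to 3 in WT_NoPrime. Its summed counts per total counts were 5.21 times as high with Pam3 as in media in Ninj1KO cells (98 and 18 counts, 95% interval 3.13 to 9.16, exact Clopper-Pearson). In WT cells they were 8.50 times as high (82 and 10 counts, 4.40 to 18.4). These intervals cover counting error only. The highest count, 28, was in WT_Pam3 replicate 5. Psph fell, at -0.88 (SE 0.08, adjusted p = 6.51e-11) in Ninj1KO cells and -0.99 (SE 0.081, adjusted p = 1.06e-11) in WT cells. The Psph model overlaps Cct6a, a chaperonin gene with 118270 counts over the 24 libraries against 3164 for Psph, so the Psph value is uncertain. Serine and glycine are interconverted in mitochondria by the product of Shmt2, which changed by -0.40 (SE 0.056, adjusted p = 2.91e-07) in Ninj1KO cells and -0.35 (SE 0.057, adjusted p = 2.57e-06) in WT cells. In proline synthesis, Aldh18a1 had -0.19 (SE 0.077, adjusted p = 0.0236) in Ninj1KO cells, a call lost in 7 of 32 alternatives (among them without Ninj1KO_NoPrime replicate 1, 3 or 4 or Ninj1KO_Pam3 replicate 6), and -0.14 (SE 0.078, adjusted p = 0.0880) in WT cells, a call gained in 6 of 32 (among them without WT_NoPrime replicate 3 or 6 or WT_Pam3 replicate 6). Pycr1 was not tested, with 5 to 9 counts per library in Ninj1KO_Pam3 and 3 to 9 in WT_Pam3. In media, Pycr1 had 0 to 12 counts in Ninj1KO_NoPrime and 1 to 3 in WT_NoPrime.

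Levels of different genes can be compared per length, in the deposited RPKM (reads scaled to gene model length and library). The library scale behind these values was not found, and it was not that of library size alone. Xbp1 averaged 59.6 ± 1.43 RPKM in WT_Pam3 and 41.8 ± 1.48 RPKM in WT_NoPrime (SD, n = 6 each). With library size alone the log2 fold change of Xbp1 in WT cells was -0.039. In Ninj1KO_Pam3 the highest level was that of Hspa5, at 290.0 ± 6.07 RPKM (SD, n = 6), with Hsp90b1 at 173 ± 5.42 and Atf4 at 148 ± 5.67 behind it. In WT_Pam3 these 3 levels were 299.97 ± 8.58, 171 ± 7.34 and 159 ± 19.0 RPKM. Nupr1 and Ppp1r15a came next in both Pam3 groups, at 129 ± 4.25 and 107 ± 8.68 RPKM in Ninj1KO_Pam3 and at 128 ± 29.5 and 125 ± 17.5 RPKM in WT_Pam3. The ranges of these 2 genes overlapped in WT_Pam3 and did not in Ninj1KO_Pam3. In WT_NoPrime the order began with Hspa5 at 131 ± 6.94 RPKM, Hsp90b1 at 109.8 ± 6.15 and Edem1 at 64.3 ± 0.829, while Ppp1r15a was at 7.88 ± 0.0750 and Nupr1 at 4.91 ± 0.716 RPKM. In WT_NoPrime the enzymes ranged from 8.14 ± 0.492 RPKM for Shmt2 down to 0.0184 and 0.00997 for Phgdh and Pycr1. Vldlr, Chac1, Phgdh and Pycr1 had mean levels of at most 0.290 RPKM in all 4 groups.

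Between the genotypes, Mthfd2 was higher in Ninj1KO cells in media and Trib3 after Pam3, and no other listed gene was called. In media 1 of 34 was called (edgeR, adjusted p under 0.05), beside 3.03% of all genes, and after Pam3 1 of 34, beside 4.06%. Both were higher in Ninj1KO cells, as were 1.92% of all genes in media and 1.31% after Pam3, while 1.12% of all genes in media and 2.75% after Pam3 were lower. None of the 18 ER genes was called in either condition by edgeR or by DESeq2. At an unadjusted p under 0.05 there were 0 after Pam3 and 1 in media. Their log2 fold changes, Ninj1KO over WT, lay between -0.13 and 0.080 after Pam3 and between -0.12 and 0.059 in media. Of the 16 tested factors and enzymes of the integrated stress response, 5 had an unadjusted p under 0.05 after Pam3 (4 higher and 1 lower). In media 5 did, all higher in Ninj1KO cells. The log2 fold changes of these 16 lay between -0.22 and 0.73 after Pam3 and between -0.0080 and 0.83 in media, the last in the low-count gene Phgdh. No share of all genes at that unadjusted threshold is given here, so these counts cannot be set against all genes and show no genotype effect on this group. The response to Pam3 differed between the genotypes in 0 of 34 genes by the interaction term (edgeR), beside 0.762% of all genes (0.173% higher and 0.589% lower). DESeq2 also called 0. In edgeR 4 had an unadjusted p under 0.05, again with no share of all genes to set beside it. The median size of the interaction over the listed genes was 0.069 on the log2 scale, against 0.12 over all genes.

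The gene called in media was Mthfd2. It averaged 4.99 ± 0.516 CPM in Ninj1KO_NoPrime and 3.95 ± 0.258 CPM in WT_NoPrime (SD, n = 6 each). The range was 4.02 to 5.54 CPM (median 5.08) in Ninj1KO_NoPrime and 3.51 to 4.26 CPM (median 4.003) in WT_NoPrime. The groups overlapped. For Mthfd2, the log2 fold change came to 0.34 (SE 0.07, adjusted p = 0.00621). After Pam3 the Mthfd2 difference was 0.044 (SE 0.053, adjusted p = 0.731). The interaction, the Pam3 response in Ninj1KO cells minus that in WT cells, was -0.29 (SE 0.088, adjusted p = 0.117) for Mthfd2. It passed the threshold in 1 of 31 alternatives, without Ninj1KO_NoPrime replicate 2, at -0.33 (adjusted p = 0.0428). In the same media libraries the summed level of 9 granulocyte markers was 90.6 to 104.5 CPM in Ninj1KO_NoPrime and 68.9 to 81.1 CPM in WT_NoPrime. That of 7 stromal markers was 52.0 to 94.5 CPM in Ninj1KO_NoPrime and 38.1 to 48.8 CPM in WT_NoPrime. All 9 granulocyte and all 7 stromal markers had counts in both groups. Called higher in Ninj1KO_NoPrime were 4 of 9 granulocyte and 6 of 7 stromal markers (edgeR, adjusted p under 0.05). Mpo, Elane and Mmp8 overlapped between the genotypes. They had 4.57 to 6.31, 1.34 to 2.07 and 8.61 to 9.72 CPM in Ninj1KO_NoPrime. In WT_NoPrime they had 4.25 to 5.96, 1.29 to 2.18 and 8.77 to 10.5 CPM. The part of the granulocyte and stromal markers in the Mthfd2 difference was not tested.

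The gene called after Pam3 was Trib3, a pseudokinase induced by ATF4 and CHOP that feeds back on ATF4. It averaged 1.78 ± 0.158 CPM in Ninj1KO_Pam3 and 1.07 ± 0.385 CPM in WT_Pam3 (SD, n = 6 each). The range was 1.497 to 1.93 CPM (median 1.81) in Ninj1KO_Pam3 and 0.630 to 1.63 CPM (median 1.01) in WT_Pam3. The groups overlapped in their ranges. For Trib3, the log2 fold change came to 0.73 (SE 0.16, adjusted p = 0.00685). It was 0.88 (adjusted p = 0.000237) without WT_Pam3 replicate 5 and 0.74 (adjusted p = 0.0738) when only these 2 groups were fitted, which ended the call. In media the difference of Trib3 was 0.30 (SE 0.13, adjusted p = 0.297), and the interaction was 0.44 (SE 0.21, adjusted p = 0.388). With Pam3, Trib3 changed by -0.33 (SE 0.13, adjusted p = 0.0271) in Ninj1KO cells and -0.76 (SE 0.15, adjusted p = 5.21e-05) in WT cells, and within both genotypes the Pam3 and media libraries overlapped. The call in Ninj1KO cells was lost in 4 of 32 alternatives, among them those without Ninj1KO_NoPrime replicate 3 or 4 or Ninj1KO_Pam3 replicate 5. Among the Pam3 libraries the granulocyte markers summed to 53.7 to 61.8 CPM in Ninj1KO_Pam3 and 44.0 to 66.0 CPM in WT_Pam3. The stromal markers summed to 130.3 to 176 CPM in Ninj1KO_Pam3 and 92.9 to 132 CPM in WT_Pam3. Their part in the Trib3 difference was not tested.

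**Figure D4:**
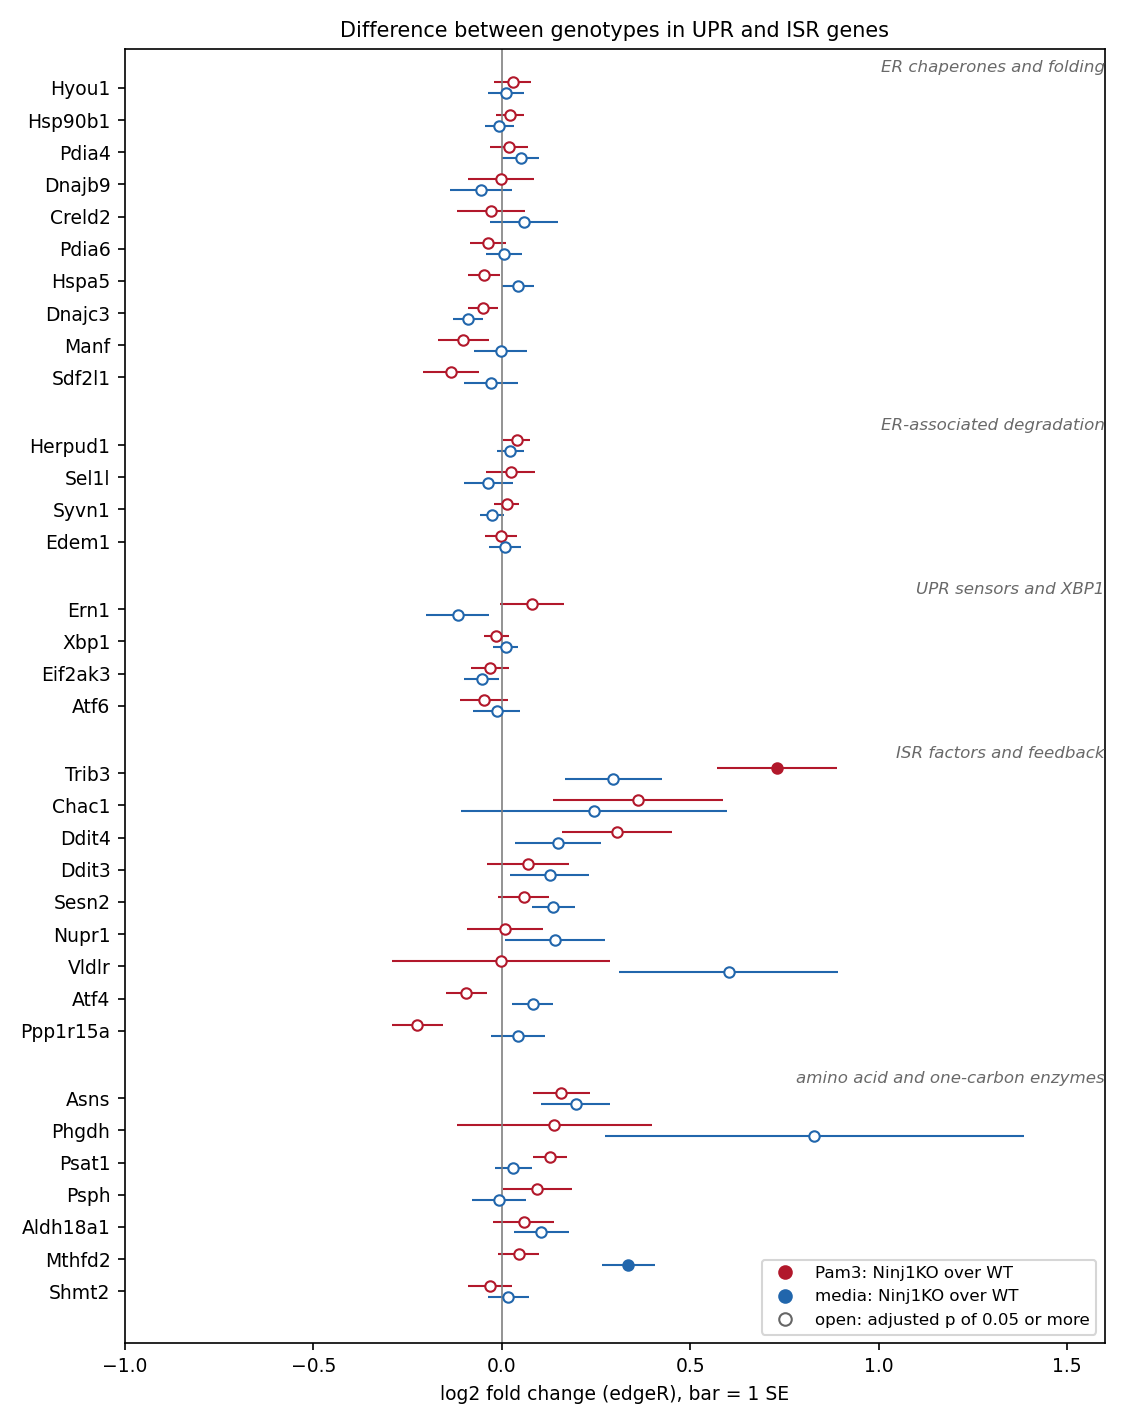
Log2 fold change of Ninj1KO over WT for each of the 34 tested genes (x axis, edgeR), grouped by role and ordered by the value after Pam3, with red points for Pam3 and blue points for media, bars of 1 SE, and filled points for an adjusted p under 0.05. The 18 ER genes lie between -0.13 and 0.080, the filled points are Trib3 after Pam3 and Mthfd2 in media, and the widest bars belong to the low-count genes Phgdh, Chac1 and Vldlr.

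WT_Pam3 replicate 5 bore on the calls between genotypes. Without it the listed genes called were 3 after Pam3 (Trib3, Ddit3 and Atf6) and 5 in media (Mthfd2, Dnajc3, Ern1, Ddit3 and Sesn2), although no media library was then left out. After Pam3, Ddit3 was then 0.26 (adjusted p = 0.000254), against 0.069 (SE 0.11, adjusted p = 0.807) with all libraries, and Atf6 was -0.12 (adjusted p = 0.00860), against -0.047 (SE 0.064, adjusted p = 0.765). In media the 4 added genes had log2 fold changes between -0.12 (Ern1) and 0.14 (Sesn2). Ppp1r15a after Pam3, at -0.22 (SE 0.068, adjusted p = 0.0595) with all libraries, passed the threshold under 4 of 32 alternatives: DESeq2, and leaving out WT_Pam3 replicate 1, WT_Pam3 replicate 6 or Ninj1KO_Pam3 replicate 6.

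**Figure D5:**
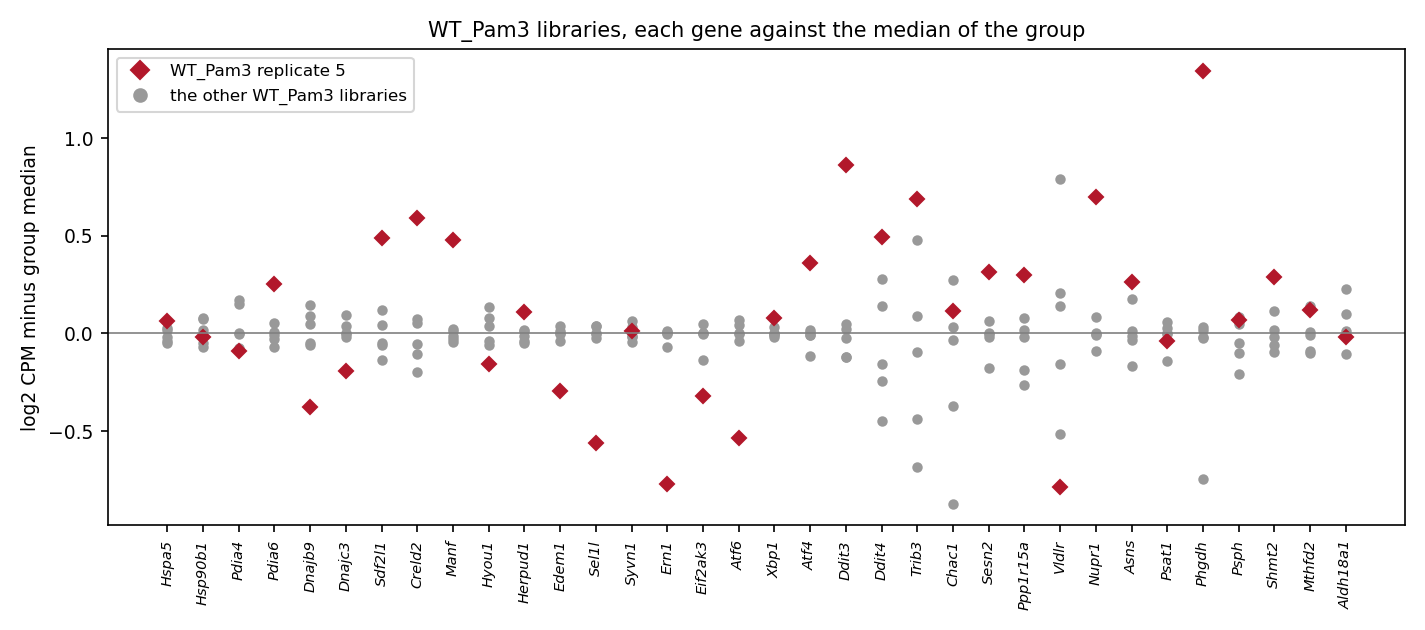
Log2 CPM of each WT_Pam3 library minus the median of the 6 WT_Pam3 libraries (y axis), for each gene with a mean of at least 10 counts in the group (x axis, by role), with red diamonds for replicate 5 and grey points for the other 5 libraries. Replicate 5 lies highest for Manf, Atf4, Ddit3 and Nupr1 and lowest for Sel1l, Ern1 and Atf6, and lies among the other libraries for Hsp90b1, Syvn1 and Psat1.

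The other genes of both pathways, 105 in 7 lists of which 101 were tested, were also called in most cases with Pam3. In Ninj1KO cells 63 rose and 29 fell, with a median log2 fold change of 0.44, and in WT cells 66 rose and 26 fell, with a median of 0.48. Over all genes 40.2% rose and 44.8% fell in Ninj1KO cells, with a median of -0.074, and 40.6% rose and 44.2% fell in WT cells, with a median of -0.055. With library size alone, tried on these lists after seeing the data, the 101 genes split into 42 higher and 46 lower in Ninj1KO cells, with a median of -0.045, and into 42 higher and 44 lower in WT cells, also with a median of -0.045. Calls in the further folding and degradation genes were then 9 higher and 15 lower in Ninj1KO cells and 9 higher and 13 lower in WT cells, and those in the other ATF4-associated factors 4 higher and 6 lower in each genotype. The counts by list that follow are under TMM. The ER translocation and export machinery rose in 14 of 18 genes in Ninj1KO cells and 15 of 18 in WT cells. Srpr, a subunit of the signal recognition particle receptor, was at 1.13 in Ninj1KO cells and 1.15 in WT cells, and Sec61a1, the pore of the translocon, at 0.69 in Ninj1KO cells and 0.71 in WT cells. Of 27 further folding and degradation genes 16 rose and 7 fell in Ninj1KO cells and 17 rose and 7 fell in WT cells. The oxidase gene Ero1l was at 1.99 in Ninj1KO cells and 1.84 in WT cells, while its paralog Ero1lb was at -1.14 in Ninj1KO cells and -1.08 in WT cells. Among 13 other regulators 6 rose and 6 fell in Ninj1KO cells and 6 rose and 5 fell in WT cells. Eif2ak4, the gene of the amino acid-sensing kinase GCN2, fell, at a log2 fold change of -2.08 in Ninj1KO cells and -2.22 in WT cells, and Ppp1r15b, which encodes the constitutive partner of the eIF2α phosphatase, was at 1.94 in Ninj1KO cells and 1.87 in WT cells.

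Amino acid supply genes showed the widest range. Of 8 amino acid transporters 7 rose and 1 fell in each genotype. Slc7a11, the cystine importer, was at a log2 fold change of 7.58 (SE 0.21, adjusted p = 2.19e-22) in Ninj1KO cells and 7.28 (SE 0.21, adjusted p = 3.89e-22) in WT cells. Slc7a11 averaged 195 ± 33.0 CPM in Ninj1KO_Pam3, 173 ± 45.6 CPM in WT_Pam3, against 1.02 ± 0.220 CPM in Ninj1KO_NoPrime and 1.103 ± 0.229 CPM in WT_NoPrime (SD, n = 6 each). Slc7a1, a carrier of arginine and lysine, was at 3.15 in Ninj1KO cells and 2.95 in WT cells, and Slc7a5, a carrier of large neutral amino acids, at 2.51 in Ninj1KO cells and 2.599 in WT cells. Of 12 cytosolic aminoacyl-tRNA synthetase genes 9 rose and 3 fell in each genotype, with Aars at 1.52 in Ninj1KO cells and 1.51 in WT cells. Of 12 other enzymes 5 rose and 6 fell in Ninj1KO cells and 5 rose and 5 fell in WT cells. Pck2, the mitochondrial enzyme that makes phosphoenolpyruvate, fell, at -4.33 (SE 0.076, adjusted p = 9.11e-27) in Ninj1KO cells and -4.16 (SE 0.077, adjusted p = 2.36e-26) in WT cells. Of 11 other ATF4-associated factors 6 rose and 4 fell in Ninj1KO cells and 7 rose and 4 fell in WT cells. Sesn1, a relative of Sesn2, was at -3.02 in Ninj1KO cells and -3.05 in WT cells, and Trib1, a relative of Trib3, at 2.99 in Ninj1KO cells and 2.95 in WT cells.

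Between the genotypes 2 of these 101 genes were lower after Pam3, beside 2.75% of all genes, and 2 were higher in media, beside 1.92% of all genes. These shares are near those of all genes. Without WT_Pam3 replicate 5 the counts were 2 higher and 2 lower after Pam3 and 3 higher and 6 lower in media. Gdf15, a secreted stress cytokine, averaged 196 ± 30.5 CPM in Ninj1KO_Pam3 and 336 ± 95.6 CPM in WT_Pam3 (SD, n = 6 each). These groups overlapped. For Gdf15, the log2 fold change came to -0.77 (SE 0.13, adjusted p = 0.000531). Atf3, a transcription factor induced by many stresses, averaged 421 ± 12.9 CPM in Ninj1KO_Pam3 and 478 ± 30.5 CPM in WT_Pam3. The log2 fold change of Atf3 came to -0.18 (SE 0.042, adjusted p = 0.0117), and every Ninj1KO_Pam3 library was below every WT_Pam3 library. The Atf3 call was lost with no filter on low counts and when only these 2 groups were fitted. In media, Kdelr3, an ER retrieval receptor, averaged 0.430 ± 0.0802 CPM in Ninj1KO_NoPrime and 0.168 ± 0.0662 CPM in WT_NoPrime. For Kdelr3, the log2 fold change came to 1.36 (SE 0.24, adjusted p = 0.00116). Aldh1l2, a mitochondrial folate enzyme, averaged 0.327 ± 0.0576 CPM in Ninj1KO_NoPrime and 0.174 ± 0.0511 CPM in WT_NoPrime. For Aldh1l2, the log2 fold change came to 0.91 (SE 0.25, adjusted p = 0.0431). The Aldh1l2 call was lost in most fits with 1 library left out: without WT_Pam3 replicate 1 or 4, without Ninj1KO_Pam3 replicate 3 or 6, without any Ninj1KO_NoPrime library but replicate 3, and without any WT_NoPrime library but replicate 2. Both genes were at trace levels, with no overlap between the groups, in the libraries where the stromal markers were also higher; their part in these 2 differences was not tested.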

How the data were processed

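The deposited files give, for each of 24 libraries, a raw read count and an RPKM value per gene model, per the file headers; the submitters' processing notes name GSNAP and GRCm38, and per the labels' protocols the libraries were unstranded TruSeq v2 libraries of polyadenylated RNA, read from 1 end on a HiSeq4000. The counter, its settings and the gene lengths and library scale behind the deposited RPKM values were not found in these sources. Gene IDs were matched to GENCODE M21, which named 52489 of 52636 models; the 147 others held 0.00387% of counts. Counts were fitted with edgeR 4.0.16 (R 4.3.3) over all 24 libraries with 1 mean per group, TMM factors (0.813 to 1.20) and the filterByExpr filter, which kept 14435 genes; quasi-likelihood tests were adjusted by Benjamini-Hochberg over all of them and called under 0.05. The biological coefficient of variation was 8.21%. Alternatives used DESeq2 1.42.0, limma 3.58.1 on log2(deposited RPKM + 1 or 0.1), other scalings and filters, the 2 groups compared alone, and each library left out. The scripts were tested on simulated data. The genes and lists were chosen with earlier results of these data known. All 35 listed genes are reported; from each further list up to 4 called genes with the smallest adjusted p per comparison could be named. No 2 count columns were identical.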

Additional observations from a re-analysis of the deposited data

Results flagged for a closer look

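A value was singled out when its gap to the nearest other library was large against the range of its group of 6 libraries (Dixon's 95% critical value), a rule by which chance picks about 1 in 20 groups. Over 132 gene-by-group sets with a mean of at least 10 counts, 17 values in 16 genes met it, and 12 of the 17 belonged to WT_Pam3 replicate 5. That library was highest for Pdia6 (289 CPM), Sdf2l1 (41.7 CPM), Creld2 (32.5 CPM), Manf (142 CPM), Atf4 (374 CPM), Ddit3 (40.4 CPM), Nupr1 (172 CPM) and Phgdh (1.01 CPM). It was lowest for Edem1 (285 CPM), Sel1l (296 CPM), Ern1 (33.3 CPM) and Atf6 (74.0 CPM). No cause was tested.

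In Ninj1KO_Pam3, replicate 1 was lowest for Creld2 (19.7 CPM) and Syvn1 (115.8 CPM). In Ninj1KO_NoPrime, replicate 1 was highest for Pdia4 (65.6 CPM). In WT_NoPrime, replicate 4 was lowest for Sesn2 (19.9 CPM) and replicate 6 highest for Shmt2 (23.3 CPM).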

How the results depend on the processing

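Over 32 alternatives, 24 of them leaving out 1 library, 5387 single-gene values were recomputed, and 5341 kept their side of the threshold and, where called, their sign; 184 of these changed sign while uncalled. With library size alone in place of TMM, 3 called genes changed sign: Dnajc3 to -0.29 in Ninj1KO cells and -0.36 in WT cells, Creld2 to -0.089 in Ninj1KO cells and -0.040 in WT cells, and Xbp1 to -0.026 in Ninj1KO cells and -0.039 in WT cells. Of these only Dnajc3 was then called lower, and Creld2 and Xbp1 were not called. The median of all genes moved to -0.56 in Ninj1KO cells and -0.58 in WT cells. The number of listed genes called after Pam3 between genotypes, 1 of 34, was 2 with library size alone (Psat1 added), 2 with DESeq2 (Ppp1r15a added) and 0 when only the 2 groups were fitted, where Trib3 had an adjusted p of 0.0738. In media it was 2 when only the 2 groups were fitted (Ddit3 added). Leaving out 1 library gave 1 to 3 genes after Pam3 and 1 to 5 in media, the highest without WT_Pam3 replicate 5 in both; it gave 0 to 1 for the interaction, 30 to 32 for Pam3 over media in Ninj1KO cells and 31 to 33 in WT cells, and the cause was not tested. Over all genes, DESeq2 called 884 against 586 by edgeR after Pam3, 694 against 438 in media and 340 against 110 for the interaction. Fitting only the 2 groups gave 177 after Pam3 and 1112 in media, leaving out WT_Pam3 replicate 5 gave 1178 after Pam3, 1274 in media and 544 for the interaction, and no filter on low counts gave 366 after Pam3 and 63 for the interaction; leaving out any other library gave 383 or more after Pam3, 238 or more in media and 28 or more for the interaction. For the 101 other pathway genes the same settings were applied after seeing the data. No paired analysis was possible because the labels give no replicate numbers and nothing else that pairs libraries. Phgdh, Pycr1, Chac1 and Vldlr, with 0 to 28 counts per library, are limited by depth.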
